A study of Mus musculus and Homo sapiens
Mus musculus with 12 samples.

Results

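The potassium channel genes were taken as the genes of the 7 mouse brain libraries whose symbols consist of Kcn, a subfamily letter or letters and a number. The rule found 92 genes of 34496, and it used no measured value. They comprised 8 Kcna genes, 2 Kcnb genes, 4 Kcnc genes, 3 Kcnd genes, 5 Kcnq genes and 8 Kcnh genes, which encode voltage-gated subunits, and 10 silent modifier subunits (Kcnf, Kcng, Kcns and Kcnv). Also included were 11 auxiliary subunits (Kcnab, Kcne and Kcnip), 15 inward rectifiers (Kcnj), 14 tandem-pore leak channels (Kcnk), 4 small-conductance calcium-activated channels (Kcnn), and 8 genes of the large-conductance and sodium-activated group (Kcnma, Kcnmb, Kcnt and Kcnu).

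Potassium channels carry the outward current that sets the resting potential and ends the action potential. Voltage-gated channels shape firing, with rapidly closing Kcnc channels in fast-spiking neurons, A-type Kcnd channels in dendrites together with Kcnip proteins, and slow Kcnq channels that hold back repetitive firing. Inward rectifiers and leak channels act near rest: G protein-coupled Kcnj channels follow inhibitory transmitters, Kcnj10 takes up potassium in glia, and several Kcnj and Kcnk channels move potassium across epithelia such as the kidney tubule.

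Nuclei came from brain of wild-type male C57BL/6J mice, aged 6 to 8 weeks by the methods. The labels and methods give no allele or drug for any group. By their titles the libraries form 4 groups: frozen brain with a reverse transcription primer lacking a preindex (No_index_frozen, 2 libraries), frozen brain with a preindexed primer (Index_frozen, 2 libraries), fresh brain without the preindex (No_index_fresh, 2 libraries) and fresh brain with it (Index_fresh, 1 library). The treatment labels of 4 libraries contradict these titles, while the barcode length (40 bases in every library titled Index and 30 in the others) goes with the titles, which were used. No label says whether libraries came from separate animals, so the p-values below measure only the spread between these libraries.

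Depth ranged from 8605214 to 42439731 unique fragment identifiers (UFIs, cDNA fragments counted once each) and from 700 to 3100 nuclei per library, 11198 nuclei in all, with a median of 9011.5 to 27543 UFIs per nucleus. The channel genes held 4087689 of the 180739290 UFIs, or 221.7 to 239.3 per 10000 in each library, and between 84 and 91 of the 92 genes had a UFI in a given library. Every nucleus had at least 1 channel UFI. Some nuclei of these brain libraries carried transcripts of other organs: 481 nuclei, all from the Index_frozen libraries (268 and 213), formed a cluster with 9 of 9 kidney tubule markers, and 92 nuclei formed a cluster with 7 of 7 microglia and 7 of 7 hepatocyte markers. Cerebellar granule-like nuclei came from No_index libraries in 227 of 231 cases. Cell barcodes were shared between libraries in 32 cases.

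The 10 genes with the most UFIs held 79.8% of all channel UFIs. Kcnip4, a Kcnd-binding calcium sensor, led with 1200613 UFIs (29.4%), followed by the calcium-activated Kcnma1 (11.3%), the A-type Kcnd2 (10.5%), Kcnq5 (6.52%) and Kcnq3 (5.92%). Kcnh7, Kcnb2, Kcnc2, Kcnj3 and Kcnd3 completed the list, and 28 genes had under 1000 UFIs. Reads over whole genes were counted, introns included, and these totals are not corrected for gene length. The annotated spans ran from 1.90 kb to 1135 kb with a median of 32.2 kb, and Kcnip4 has the longest. The part of gene length in the totals was not tested. Per kb of span the order changed. The short Kcna2, an axonal channel (13.9 kb, chromosome 3, bases 107101146 to 107115005 in GRCm38), came first with 7.00 CPM (counts in a total of 1000000) per kb, and Kcna1 and Kcnip4 were also among the leading genes (6.17 and 5.85). Other annotated genes overlap 42 of the 92 spans, on the opposite strand for 38 of them. The methods describe UFIs as strand specific, but the strand setting of the gene counting is not given in the sources used here. Whether reads of opposite pairs such as Kcnmb1 and Kcnip1 were kept apart was not tested.

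To describe which kinds of nuclei each channel marked, nuclei were clustered without the channel genes among the variable genes, which gave 26 clusters. A cluster is called by a cell type, with "-like" added, only where its markers allowed it. Otherwise it is called by its leading genes. Levels are UFIs per 10000 UFIs of a cluster, given as the mean ± SD over the libraries with at least 10 nuclei of that cluster. Since the clusters come from the same nuclei, these differences are descriptions and carry no test. Of 46 channel genes with at least 1 UFI per 10000 in their highest cluster, 16 stood at 5 times or more above the mean of the other clusters, a share close to that over all such genes (32.2% of 4189).

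**Figure D1:**
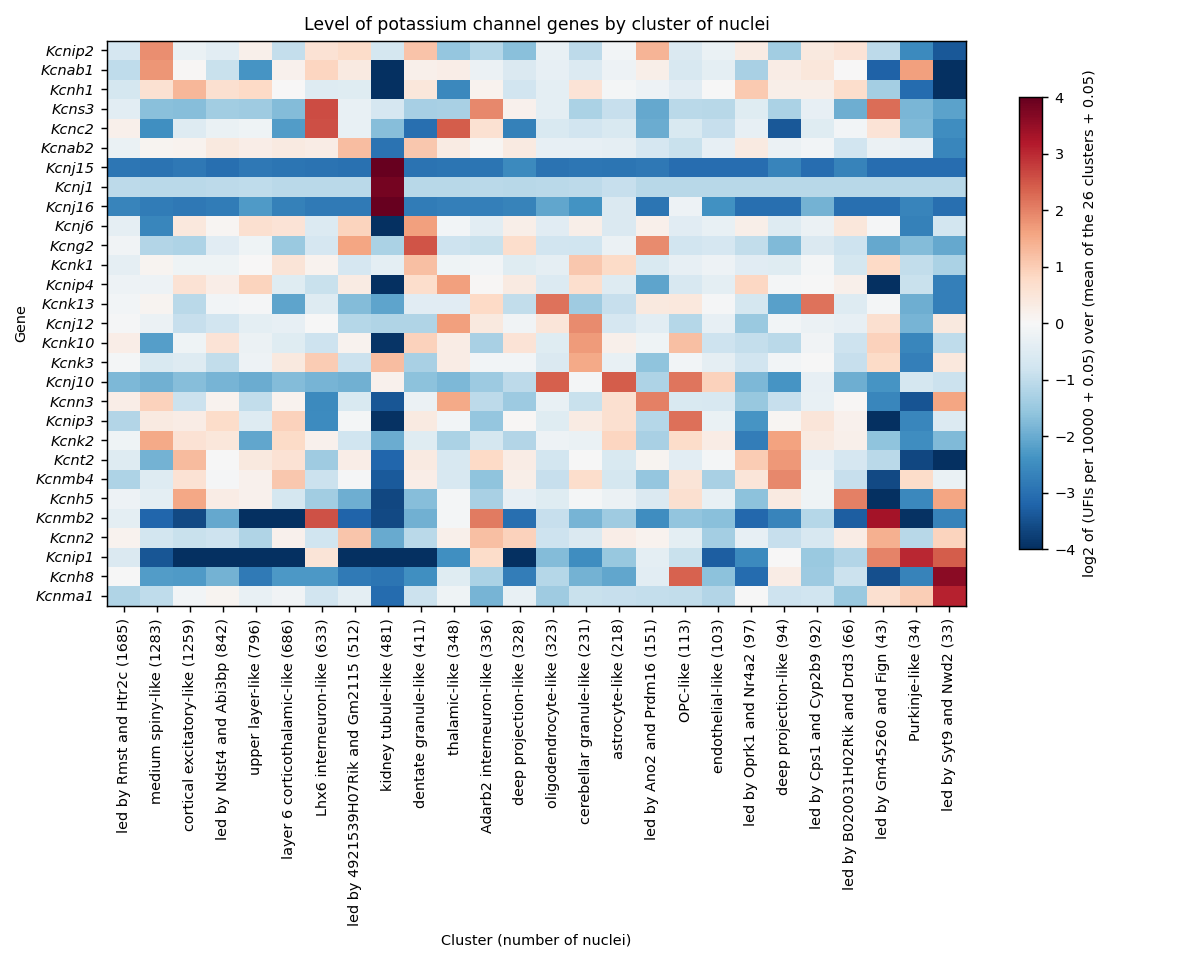
Level of 29 channel genes named by the rule in each of the 26 clusters, as the log2 ratio of the level plus 0.05 to the mean of the clusters plus 0.05, with the number of nuclei in parentheses and colours that stop at the limits of the colour bar. Kcnj1, Kcnj15 and Kcnj16 stand out in the kidney tubule-like cluster, Kcnc2 and Kcns3 in the Lhx6 interneuron-like cluster, and Kcnj10 in the oligodendrocyte-like, astrocyte-like and OPC-like clusters.

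Among the voltage-gated subunits, the fast Kcnc channels marked inhibitory and projection neurons of several kinds. Kcnc2 was highest in Lhx6 interneuron-like nuclei (28.5 ± 5.12, n = 7; lowest library 18.9, median 28.8, highest 36.1) and nearly as high in thalamic-like nuclei (25.3 ± 4.94, n = 7), a gap within the spread between libraries. It was highest in the Lhx6 cluster in 6 of 7 libraries, against a mean of 3.77 over the other clusters. Kcnc1 had its peak in the same interneurons (6.63 ± 0.690, n = 7, from 5.72 to 7.67), above every other cluster in all 7 libraries. Kcnc4 was low everywhere, with its peak in dentate granule-like nuclei (0.681 ± 0.163, n = 7).

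The silent modifier subunits, which form channels only together with other subunits, were rare (0.468% of channel UFIs for 10 genes) but several were sharply placed. Kcns3 lay at 1.31 ± 0.166 in Lhx6 interneuron-like nuclei (n = 7, from 1.09 to 1.52, median 1.27), 10.5 times the mean of the other clusters. Kcng2 lay at 1.14 ± 0.230 in dentate granule-like nuclei (n = 7, from 0.808 to 1.49, median 1.11), 9.61 times the other clusters. Kcng4 was highest in Purkinje-like nuclei, at 0.505 and 1.01 in 2 libraries against a mean of 0.0274 over the other clusters. Kcnv1 peaked in the cluster led by Oprk1 and Nr4a2 (0.909 ± 0.300, n = 4). For Kcng2 and Kcns3 the ranges overlapped other clusters, whose highest values in any library were 0.888 and 1.39.

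The A-type Kcnd channels were broad. Kcnd2 was seen at 64.4 ± 7.82 in cerebellar granule-like nuclei (n = 4) and at 93.9 in a cluster of 33 nuclei led by Syt9 and Nwd2, for which only 1 library, Index_fresh, had 10 nuclei. Kcnd3 varied less, with a peak of 8.91 ± 1.52 in Adarb2 interneuron-like nuclei (n = 7), 1.88 times the other clusters, and was highest there in 3 of 7 libraries. Their Kcnip partners each peaked in a different class. Kcnip4 reached 184 ± 28.2 in thalamic-like nuclei (n = 7; lowest 149.7, median 189, highest 224), and no other cluster exceeded 124 in any library. It was nevertheless broad, since this peak was 3.44 times the mean of the other clusters, against 3.73 times for Kcnd2. Kcnip1 was highest in Purkinje-like nuclei (49.2 and 51.5 in 2 libraries). Kcnip2 was highest in medium spiny-like nuclei (1.85 ± 0.198, n = 7) in all 7 libraries, and Kcnip3 in OPC-like nuclei (6.80 ± 2.14, n = 4).

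Medium spiny-like nuclei, the projection neurons of the striatum, combined several channels. Kcnq5, a slow voltage-gated channel, lay at 31.7 ± 1.96 there (n = 7; lowest 28.8, median 32.4, highest 33.7), above all other clusters in all 7 libraries and 3.04 times their mean. The A-type Kcna4 (0.782 ± 0.0794) and Kcnh4 (0.512 ± 0.0874) were also highest there in 7 of 7 libraries, as was the inward rectifier Kcnj4 (0.761 ± 0.104). Kcnab1, a cytoplasmic subunit of Kcna channels, lay at 6.51 ± 1.57 (n = 7) and was highest there in 5 of 7 libraries, with Purkinje-like nuclei second. Kcnj2 (0.345 ± 0.0798) was highest there in 4 of 7 libraries, followed by the endothelial-like cluster.

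The other Kcnq and Kcnh genes were spread over excitatory and inhibitory classes. Kcnq3, a slow channel like Kcnq5, was highest in the cluster led by Oprk1 and Nr4a2 (21.4 ± 2.74, n = 4) but reached 28.1 in another cluster in 1 library. Kcnh1 was highest in cortical excitatory-like nuclei in 7 of 7 libraries (8.60 ± 1.13) and Kcnh5 in the cluster led by B020031H02Rik and Drd3 (7.49 ± 1.63, n = 4). Kcnh7 was equally high in deep projection-like (21.9 ± 2.48, n = 7) and upper layer-like nuclei (21.9 ± 1.84, n = 7). Kcnh8 had 2 unlike peaks, OPC-like nuclei (2.91 ± 0.689, n = 4) and the cluster led by Syt9 and Nwd2 (7.00 in 1 library), against a mean of 0.263 outside the latter.

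Of the calcium- and sodium-activated channels, Kcnma1, the pore of the large-conductance channel, was found in all neuron-like clusters and reached 312 in the 1 library with enough nuclei of the Syt9-led cluster, whereas no other cluster passed 76.9 in any library. Its inactivating subunit Kcnmb2 was highest in interneuron-like nuclei and an unnamed cluster. It lay at 19.1 and 22.0 in the cluster of 43 nuclei led by Gm45260 and Fign, at 11.9 ± 0.799 in Lhx6 interneuron-like nuclei (n = 7, lowest library 10.7) and at 8.57 ± 1.46 in Adarb2 interneuron-like nuclei (n = 7, from 6.44 to 11.1). The first of these did not overlap the other two, which overlapped each other. Kcnmb4 and the sodium-activated Kcnt2 were highest in the deep projection-like cluster of 94 nuclei (2.27 ± 0.434 and 9.78 ± 2.69, n = 4 each). Kcnt1 peaked in cerebellar granule-like nuclei (1.69 ± 0.130, n = 4). The small-conductance Kcnn3 peaked in the cluster led by Ano2 and Prdm16 (4.94 ± 1.48, n = 5) ahead of the Syt9-led cluster (3.59 in 1 library) and thalamic-like nuclei (3.49 ± 0.436, n = 7), and Kcnn2 in the cluster led by Gm45260 and Fign (6.88 and 8.06).

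The 15 inward rectifiers split between neuronal and non-neuronal nuclei. The G protein-coupled Kcnj3 and Kcnj6 were both highest in dentate granule-like nuclei (n = 7 each). Kcnj6 ran from 9.45 to 12.5 (median 10.6) and was highest there in 7 of 7 libraries, and its range stayed above every value of the other clusters (at most 7.89). Kcnj3 lay at 10.6 ± 1.55 and was highest there in 5 of 7 libraries. Their relatives Kcnj9 (0.759 ± 0.274) and Kcnj5 (0.0891 ± 0.0671) were highest in the cluster led by Oprk1 and Nr4a2 and second in thalamic-like nuclei (n = 4), with ranges that overlapped other clusters. The strong rectifier Kcnj12 was highest in cerebellar granule-like nuclei (1.10 ± 0.411, n = 4) and overlapped thalamic-like nuclei, which reached 1.26. Kcnj11, the pore of the ATP-sensitive channel, was low and even (0.153 ± 0.0683 in dentate granule-like nuclei, 1.92 times the other clusters). Kcnj14 (109 UFIs in all) and Kcnj13 (25 UFIs) were too sparse to place.

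Kcnj10, the main glial inward rectifier, was about equal in astrocyte-like nuclei (1.31 ± 0.365, n = 7; lowest 0.709, median 1.32, highest 1.78) and oligodendrocyte-like nuclei (1.28 ± 0.257, n = 7; lowest 0.929, median 1.20, highest 1.57). It lay at 1.08 ± 0.0495 in OPC-like nuclei (n = 4), and the 3 glial clusters overlapped. The mean over neuron-like clusters was 0.0411. Kcnj16, which pairs with Kcnj10, lay at 0.303 in OPC-like, 0.222 in astrocyte-like and 0.0470 in oligodendrocyte-like nuclei against 0.00958 in neuron-like clusters. Kcnj8, the pore of the vascular ATP-sensitive channel, had 46 UFIs in all and lay at 0.229 ± 0.132 in the endothelial-like cluster (n = 6), which also carried 6 of 6 pericyte markers. It ran from 0 in 1 library to 0.393, and no value of another cluster passed 0.0140.

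None of the 14 tandem-pore channels had a mean above 3.21 in any of the 26 clusters. Kcnk10, Kcnk12 and Kcnk3 were each highest in cerebellar granule-like nuclei in 4 of 4 libraries (3.21 ± 0.249, 1.35 ± 0.0987 and 1.19 ± 0.215). The mechanosensitive Kcnk2 was highest in a deep projection-like cluster (2.34 ± 0.532, n = 4) and overlapped medium spiny-like nuclei (2.20 ± 0.226, n = 7). Kcnk1 was highest in dentate granule-like nuclei (1.24 ± 0.202, n = 7), Kcnk9 in upper layer-like nuclei (0.578 ± 0.0647, n = 7), with layer 6 corticothalamic-like nuclei at 0.570 ± 0.0842, and Kcnk4 in cortical excitatory-like nuclei (0.128 ± 0.0220, n = 7). Kcnk5, an epithelial channel, was highest in kidney tubule-like nuclei, and Kcnk6 in the cluster led by Cps1 and Cyp2b9 (0.148 ± 0.104, n = 6). Kcnk7, Kcnk15, Kcnk16 and Kcnk18 had 2 to 32 UFIs in all and were not placed.

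Kcnk13, a leak channel known from microglia, was highest in oligodendrocyte-like nuclei (1.46 ± 0.386, n = 7; lowest 0.859, median 1.59, highest 1.89) and at the same level in the cluster led by Cps1 and Cyp2b9, the one with microglia markers (1.45 ± 0.641, n = 6; lowest 0.503, median 1.50, highest 2.34). Both ranges overlapped, and the mean over neuron-like clusters was 0.181. A gene on the opposite strand overlaps the span of Kcnk13.

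Glial and vascular clusters also held neuronal transcripts. The 6 markers of neurons (Rbfox3, Snap25, Syt1, Rbfox1, Celf4 and Nrg3) stood in oligodendrocyte-like nuclei at 53.2% to 63.0% of their mean over neuron-like clusters, in astrocyte-like nuclei at 56.3% to 73.6%, in OPC-like nuclei at 47.5% to 73.1% and in endothelial-like nuclei at 52.0% to 67.6%. The 53 channel genes with a neuron-like mean of at least 0.1 had medians of 65.0%, 70.4%, 60.0% and 70.6% in turn, inside the marker range in astrocyte-like and OPC-like nuclei and just above it in the other two. In the cluster led by Cps1 and Cyp2b9 the markers stood at 74.6% to 87.8% and the channel genes at a median of 82.7%. In kidney tubule-like nuclei the markers stood at 0.316% to 2.82% and the channel genes at a median of 3.20%. Kcnip4, for example, lay at 65.0 in neuron-like clusters, 40.1 in oligodendrocyte-like and 0.257 in kidney tubule-like nuclei. The part of carried-over RNA, or of nuclei sharing a barcode, in the glial values was not tested.

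Of the 53 genes, the number at 200% of the neuron-like mean or more was 1 in oligodendrocyte-like nuclei (Kcnk13, 805%), 0 in astrocyte-like nuclei, 4 in OPC-like nuclei and 0 in endothelial-like nuclei. The OPC-like genes were Kcnh8 (579%), Kcnip3 (559%), the leak channel Kcnk10 (235%) and Kcnk13 (221%). The next highest values were those of Kcnk2 (199%) and Kcnip3 (188%) in astrocyte-like nuclei, of Kcna6 in oligodendrocyte-like nuclei (186%), where it lay at 1.40, and of Kcnk2 in OPC-like nuclei (182%). Genes with neuron-like means below 0.1 were not among the 53, and these included Kcnj10, Kcnj16, Kcnj8, Kcnq1 and Kcnmb1. Kcnmb1, a subunit of the large-conductance channel in smooth muscle, had 34 UFIs in all and was highest in endothelial-like nuclei in 6 of 6 libraries (0.0857 ± 0.0280). Kcnq1, which carries a slow current in heart and epithelia, lay at 0.743 ± 0.618 in endothelial-like nuclei (n = 6, from 0.146 to 1.87) against 0.0435 in neuron-like clusters.

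**Figure D2:**
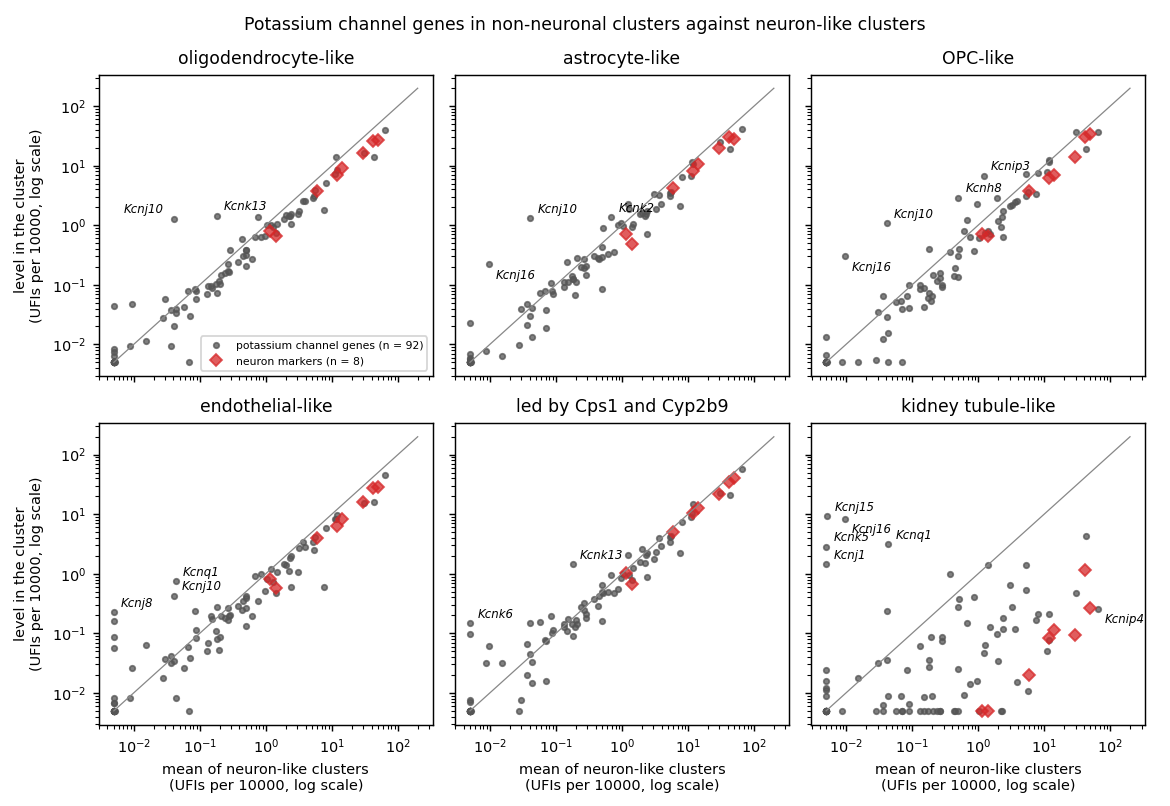
Level of all 92 channel genes (grey) and 8 neuron markers (red) in 6 non-neuronal clusters, in UFIs per 10000 on log scales, against the mean of the neuron-like clusters, with values under 0.005 drawn at 0.005 and the line of equal levels. In the glial, endothelial and Cps1-led clusters most channel genes run just below the line along with the neuron markers and single genes such as Kcnj10, Kcnk13 and Kcnh8 lie above it, whereas in kidney tubule-like nuclei both fall far below it and Kcnj15, Kcnj16, Kcnk5, Kcnq1 and Kcnj1 lie above.

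In kidney tubule-like nuclei most channel genes were low and 5 epithelial ones with at least 1 UFI per 10000 were at their highest. The sparse Kcne1, with 27 UFIs in all, was also highest there (0.0244). Channel genes made up 39.1 ± 0.145 UFIs per 10000 there (n = 2), against 126.7 to 369 in the neuron-like clusters and 502 in the Syt9-led one, which rests on 1 library. Kcnj15, an inward rectifier of the proximal tubule, lay at 8.45 and 10.1 in the 2 Index_frozen libraries, and Kcnj16 at 7.84 and 9.01. Kcnq1 (2.72 and 3.56), Kcnk5 (2.71 and 2.96) and Kcnj1 (1.25 and 1.67), the secretory channel of the distal nephron, followed. The highest value of any other cluster in any library was 0.114 for Kcnj15, 0.566 for Kcnj16, 1.87 for Kcnq1, 0.548 for Kcnk5 and 0.0392 for Kcnj1. In Index_frozen replicate 1, 235 of the 268 kidney tubule-like nuclei carried preindexes that no nucleus of another cluster had in that library, and in replicate 2 all 213 did.

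Detection was compared after thinning each nucleus to 3000 UFIs, which 11195 of 11198 nuclei had. The median nucleus then had 15 to 17 channel genes with a UFI in every library, against 24 to 37 without thinning. At least 1 cluster had the gene in 10% or more of its nuclei for 61 of 92 channel genes. In a second random draw, made over all genes, the number was 62, compared with 24% of all genes. Kcnip4 was detected in 348 of 348 thalamic-like nuclei (100%, exact Clopper-Pearson interval 98.9% to 100%) and in 28 of 481 kidney tubule-like nuclei (5.82%). Kcnc2 was detected in 94.9% of 633 Lhx6 interneuron-like nuclei (92.9% to 96.5%) and in 6.81% of 411 dentate granule-like nuclei. Kcnj15 was detected in 82.7% of kidney tubule-like nuclei (79.1% to 86.0%) and in 0.159% of the others. Genes of lower level were found in a minority of the nuclei they marked: Kcns3 in 30.8% of Lhx6 interneuron-like nuclei (27.2% to 34.6%), Kcnj10 in 29.8% of 218 astrocyte-like nuclei (23.8% to 36.4%), Kcng2 in 28.0% of dentate granule-like nuclei (23.7% to 32.6%) and Kcnk13 in 25.1% of 323 oligodendrocyte-like nuclei (20.4% to 30.2%). Kcng4 was found in 8 of 34 Purkinje-like nuclei (23.5%, 10.8% to 41.2%). Where none was seen the limit depends on the number of nuclei: Kcna2 had a UFI in 0 of 481 kidney tubule-like nuclei, which allows a share of up to 0.624% by the limit of 3 counts (exact upper bound 0.764%). This limits nuclei with a UFI after thinning, not nuclei that express the gene. These intervals cover counting error only.

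The comparison of primers asked whether adding a preindex changed which channel transcripts were captured. The preindex is a stretch of 10 bases placed between a common handle and the annealing end of the reverse transcription primer. The pieces around the preindex are shown as the study lists them. The annealing ends, which decide where the primer anneals, are in capitals:

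Common handle: ggagttggagtgagtggatgagtgatg
Annealing end of the poly-T primer: TTTTTTTTTTTTTTTTTTTT
Annealing end of the random primer: NNNNNNN

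The preindexes differ between primers and are not printed. The paper describes capture with random primers, and whether the poly-T primer was used for these libraries was not tested. The listed preindexes matched 3100 of 3100 nuclei in Index_fresh but only 175 of 2300 and 159 of 1998 in Index_frozen replicates 1 and 2. The list therefore does not describe most preindexes of the Index_frozen libraries, and whether the pieces above hold for those primers was not tested.

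For the test, the UFIs of all nuclei of a library were added up and compared with edgeR. Of 77 channel genes that passed the filter on low counts, 32 differed between Index and No_index libraries at an adjusted p of 0.05, 13 higher and 19 lower in Index, against a background of 15.8% of all genes (7.88% higher and 7.88% lower). Of the 32, 4 had an absolute log2 fold change of at least 1 (background 3.65%). For 30 of the 32 the 3 Index and the 4 No_index libraries did not overlap. Over all 77 genes, Index lay wholly above in 15 and wholly below in 23, compared with 12% and 14.8% of all genes. The count rested in part on single libraries: it was 16 without No_index_frozen replicate 1, 20 without No_index_frozen replicate 2, 15 and 13 without Index_frozen replicates 1 and 2, 18 and 24 without No_index_fresh replicates 1 and 2, and 44 without Index_fresh. The share of all genes called was then 9.57%, 7.44%, 6.13%, 5.26%, 8.71%, 10.9% and 31.3% in turn.

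Several voltage-gated channels with short genes were lower in Index libraries. In CPM scaled to library size by TMM, Kcna2 lay at 114 and 121 in No_index_frozen, 120.0 and 122 in No_index_fresh, 64.3 and 67.3 in Index_frozen and 81.6 in Index_fresh. All 3 Index libraries were below all 4 others, and the log2 fold change was -0.73 ± 0.07 (SE; adjusted p = 0.00146). The Purkinje-enriched Kcng4 ran from 1.53 to 5.55 CPM in No_index and from 0.272 to 0.899 in Index libraries (log2 -2.37 ± 0.45, adjusted p = 0.0146), and Purkinje-like nuclei came from No_index libraries in 34 of 34 cases.

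Other genes called lower included Kcna3, a channel known from immune cells (2.06 to 2.97 CPM in Index and 4.58 to 5.48 in No_index), the leak channels Kcnk10 and Kcnk12, the ATP-sensitive Kcnj11, and Kcnj12, Kcnt1 and Kcnc1. Kcnk10 ran from 99.8 to 115 CPM in No_index and from 79.0 to 81.6 in Index (log2 -0.44 ± 0.06, adjusted p = 0.00389). Kcnt1 ran from 97.8 to 102 in No_index and from 74.6 to 79.0 in Index libraries (log2 -0.36 ± 0.04, adjusted p = 0.00310). Kcnk10, Kcnk12, Kcnj12 and Kcnt1 had their highest levels in cerebellar nuclei, nearly all of them from No_index libraries. The 11 clusters tested singly below include no cerebellar one. Among these 11 the log2 value was positive in 0 for Kcnt1, in 1 for Kcnk12 and in 4 for Kcnk10. The part of cerebellar nuclei in the falls of single genes was not tested. Without the cerebellar clusters 23 of 80 channel genes were called, 7 higher and 16 lower (background 12.6%, 6.4% higher and 6.23% lower). In neuron-like nuclei without them, a setting chosen after the data had been seen, 32 of 76 were called, 19 higher and 13 lower (background 18.5%, 10% higher and 8.47% lower).

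Several long neuronal channel genes were higher in Index libraries. Kcnq3 lay at 1226 and 1192 CPM in No_index_frozen, 1139 and 1180.0 in No_index_fresh, 1459 and 1457 in Index_frozen and 1620.0 in Index_fresh. No library of either type overlapped the other (log2 0.36 ± 0.05, adjusted p = 0.00746). Kcnab1 ran from 159 to 193 in No_index and from 238 to 253 in Index libraries (log2 0.42 ± 0.06, adjusted p = 0.00428). Kcnip2, at 24.2 kb the shortest gene called higher, ran from 46.9 to 50.6 and from 61.4 to 69.9 (log2 0.44 ± 0.04, adjusted p = 0.00191), and Kcnk2 from 71.6 to 80.3 and from 88.7 to 103 (log2 0.36 ± 0.08, adjusted p = 0.0197). Kcnq5, Kcnc2, Kcnh5, Kcnh1, Kcnip3 and Kcnb2 had smaller rises, with log2 values from 0.32 down to 0.16. Kcnq5, Kcnab1 and Kcnip2 were highest, and Kcnk2 second highest, in medium spiny-like nuclei. Those nuclei were 71 of 700, 99 of 800, 77 of 1000 and 90 of 1300 in No_index libraries. In Index libraries they were 288 of 2300, 272 of 1998 and 386 of 3100. Within single clusters (below), Kcnab1 and Kcnk2 were called higher in 2 each, Kcnq5 higher in 2 and lower in 1, and Kcnip2 in none. The part of the mix of nuclei in these rises was not tested.

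Among the genes called higher, the 3 with the largest log2 values were kidney channels. Kcnk5 lay at 24.7 and 20.9 CPM in Index_frozen and at 0.747 to 1.02 in the other 5 libraries, and Kcnq1 at 25.2 and 32.2 against 4.23 to 6.89. Kcnj1 lay at 10.4 and 12.7 against 0 to 0.275. Index_fresh stayed at the level of the No_index libraries in each case, and both Index_frozen libraries are those with kidney tubule-like nuclei. The calls had log2 values of 2.94, 1.57 and 3.92 (adjusted p = 0.0460, 0.0490 and 0.0464). A further fit left out the kidney tubule-like cluster and the cluster led by Cps1 and Cyp2b9. The latter, called the hepatocyte cluster in these fits, also had 7 of 7 microglia markers. Without the kidney and hepatocyte clusters Kcnk5 turned to -0.45 (adjusted p = 0.266) and Kcnq1 to 0.08 (adjusted p = 0.808), and Kcnj1 no longer passed the filter. Kcnj15 (82.7 and 64.1 CPM in Index_frozen, at most 0.740 elsewhere) and Kcnj16 (75.4 and 61.3, at most 2.58 elsewhere) had the same pattern, with an adjusted p of 0.0501 and 0.0882. Without those clusters 30 of 76 channel genes were called, 18 higher and 12 lower (background 19.3%, 10.3% higher and 9% lower), and 21 of the 32 genes were among them.

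**Figure D3:**
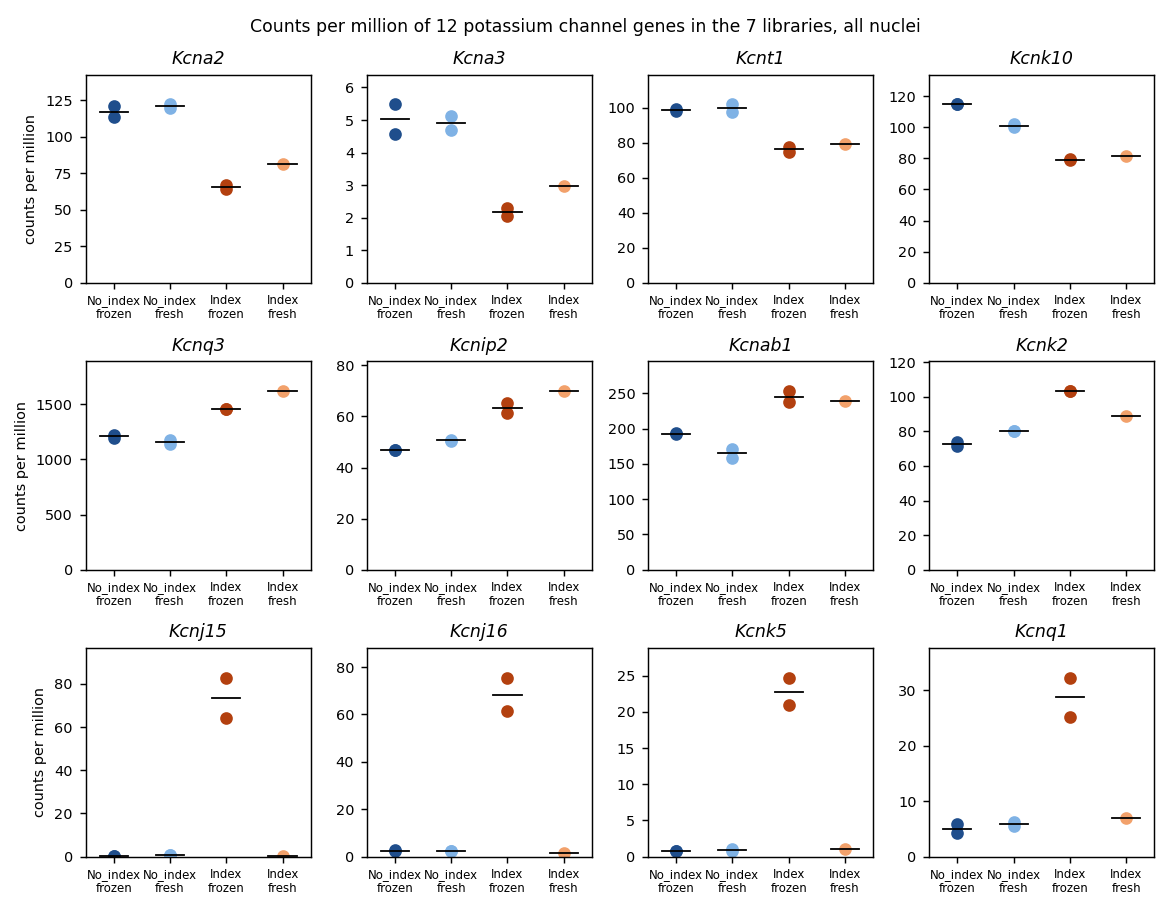
CPM of 12 channel genes in each of the 7 libraries (points), by group, with a line at the group mean and axes that start at 0. Kcna2, Kcna3, Kcnt1 and Kcnk10 are lower and Kcnq3, Kcnip2, Kcnab1 and Kcnk2 higher in every Index library, while Kcnj15, Kcnj16, Kcnk5 and Kcnq1 are high only in the 2 Index_frozen libraries.

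Restricting the sums to the 9868 neuron-like nuclei removed most of the other tissues and gave a similar number of calls: 33 of 76 channel genes, 18 higher and 15 lower, against 21.2% of all genes (11.3% higher and 9.94% lower). An absolute log2 fold change of at least 1 was reached by 2 of them (background 2.82%). The mix of neuron classes still differed by primer. Upper layer-like nuclei were 30 of 634, 44 of 723, 67 of 916 and 76 of 1167 neuron-like nuclei in No_index libraries. In Index libraries they were 174 of 1847, 142 of 1649 and 263 of 2932. The part of this mix in the calls was not tested. Of the 32 genes called in all nuclei, 23 were also called here, and 10 were called here only. New among the higher genes were Kcnip4 (log2 0.34 ± 0.05, adjusted p = 0.000819), Kcnma1 (0.23 ± 0.05, adjusted p = 0.0106), Kcnd3 (0.38 ± 0.06, adjusted p = 0.00144), Kcnk13 (0.64 ± 0.08, adjusted p = 0.000645), Kcnmb2, Kcnj6, Kcnn3 and Kcng3. In the 11 clusters tested singly below, Kcnip4, Kcnma1 and Kcnd3 each had a positive log2 value in 10. Kcnj6 had one in 8, Kcnn3 in 7, Kcnk13 in 6 and Kcnmb2 in 5, and Kcng3 was not called. New among the lower genes were the glial Kcnj10 (-1.14 ± 0.25, adjusted p = 0.0100) and Kcnk3 (-0.24 ± 0.07, adjusted p = 0.0396).

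The direction of the primer difference went with the span of the gene. In neuron-like nuclei the genes called higher had a median span of 259 kb (24.2 to 1135 kb) and those called lower 32.9 kb (1.90 to 149 kb). Over all genes called the medians were 97.0 kb and 17.8 kb. Among channel genes over 300 kb, 6 of 13 rose and 0 fell, where 56.5% of all genes of that span rose and 3.91% fell. Among channel genes of 100 to 300 kb, 8 of 10 rose and 1 fell, where 31.1% of all such genes rose and 6.77% fell. Among channel genes under 10 kb, 0 of 12 rose and 2 fell, where 3.91% of all such genes rose and 13.3% fell. From 10 to 30 kb, 1 of 17 rose and 3 fell, where 3.86% of all such genes rose and 11.8% fell. Between 30 and 100 kb, 9 of 24 channel genes fell (37.5%), against 7.99% of all genes. Spearman's rho between span and log2 fold change was 0.58 across the 76 channel genes and 0.26 across 17424 genes. These are descriptions across genes, which share libraries and are not independent replicates. Depth per nucleus differed as well, with medians of 9011.5 to 14016.5 UFIs in Index and 10187 to 27543 in No_index libraries, and its part in the differences was not tested. The part of the mix of neuron classes was not tested either.

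**Figure D4:**
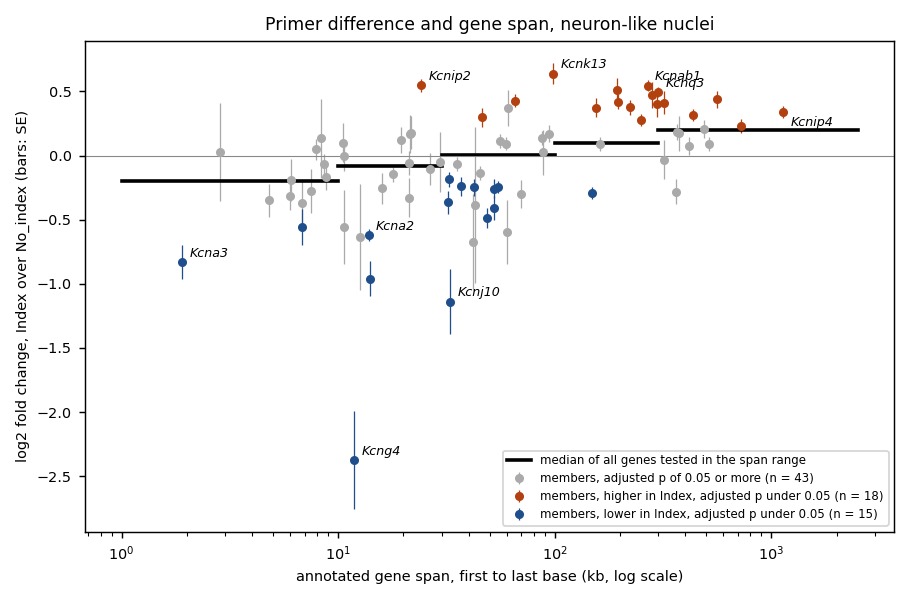
Log2 fold change between Index and No_index libraries (bars, SE) against the annotated span in kb on a log scale for the 76 channel genes tested in neuron-like nuclei, coloured by call, with black lines at the median of all genes tested in each range of span. Genes called higher lie mostly above 100 kb and genes called lower mostly below 100 kb. The median of all genes tested, called or not, runs from -0.20 under 10 kb to 0.20 over 300 kb.

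To hold the kind of nucleus fixed, the same test was run within each of the 11 clusters that had at least 20 nuclei in every library. Between Index and No_index libraries 28 of 71 channel genes differed in at least 1 cluster, against 11.8% of all genes. Some genes were called in several classes: Kcnq3, Kcnd3 and Kcnip4 were each called higher in 4 clusters and lower in none, with log2 values of 0.32 to 0.58, 0.60 to 0.78 and 0.34 to 0.46. Kcnn3 rose in 3 clusters (0.67 to 1.04) and Kcnk13 in 2 (1.07 in upper layer-like and 1.62 in dentate granule-like nuclei). Kcna2 fell in 2 clusters (-0.57 and -0.87) and had no positive value in any of the 11. Other genes were called in both directions. Kcnc2 rose in cortical excitatory-like and upper layer-like nuclei (0.39 and 0.41) and fell in medium spiny-like nuclei (-0.76). Kcnj6 rose in upper layer-like nuclei (0.58) and fell in medium spiny-like nuclei (-1.19), where Kcnj3 fell as well (-0.82). The genes that fell there were held at a low level in medium spiny-like nuclei. Kcnc2 lay at 0.914 in those with D1 markers and 0.731 in those with D2 markers, against 5.31 over neuron-like clusters. In the same order Kcnj6 lay at 0.606 and 0.185 against 3.87, and Kcnj3 at 1.595 and 0.679 against 5.63. The part of carried-over RNA in these falls was not tested.

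Some calls within clusters concerned genes held there at a low level. Dentate granule-like nuclei had Kcnq5 at 6.33 and 4.24 in No_index_frozen, 1.55 and 2.71 in No_index_fresh, 0.853 and 0.831 in Index_frozen and 0.701 in Index_fresh (log2 -2.14 ± 0.23, adjusted p = 4.76e-05). All 3 Index libraries were below all 4 others, and the mean of 2.46 was the lowest of the gene among the 11 clusters. Kcnt1 in the same nuclei (log2 -2.56 ± 0.47, adjusted p = 0.00768) and Kcnk10 in medium spiny-like nuclei (log2 -1.56 ± 0.21, adjusted p = 8.43e-05; 0.219 to 0.266 UFIs per 10000 in No_index and 0.0579 to 0.0938 in Index) were of the same kind. Their levels in cerebellar granule-like nuclei were 1.69 for Kcnt1 and 3.21 for Kcnk10. In oligodendrocyte-like nuclei Kcnj9, Kcnk12, Kcnk3 and Kcnmb2 were called lower, with log2 values of -1.43 to -2.20. Of these, Kcnmb2 was high there only in the No_index_frozen libraries, which also gave its storage call below. For Kcnmb2 a primer difference therefore cannot be told apart from a deviation of that group. The part of carried-over RNA in these differences was not tested.

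Storage was compared between 4 frozen and 3 fresh libraries in the same fits. No channel gene differed at an adjusted p of 0.05 by edgeR in all nuclei (0 of 77, background 0.207%, and 0 of 76 without the kidney and hepatocyte clusters, background 0.252%). At an unadjusted p of 0.05 there were 22 (background 15%), and DESeq2 called 4 (background 1.65%), all lower in frozen libraries, Kcnj6 and Kcnab2 among them. By edgeR Kcnj6 and Kcnab2 had log2 fold changes of -0.23 ± 0.05 and -0.18 ± 0.04, with adjusted p-values of 0.139 and 0.114. In neuron-like nuclei edgeR again called 0 of 76 (background 0.429%), with 11 at an unadjusted p of 0.05 (background 11.8%) and 2 by DESeq2 (background 0.985%). The frozen libraries lay wholly above the fresh ones for 0 channel genes and wholly below them for 5 in all nuclei (background 3.86% and 4.22%). With no filter on low counts edgeR called 18 of 92 in all nuclei (background 5.62%) and 9 of 92 in neuron-like nuclei (background 2.24%). The result rested on the single Index_fresh library: without it edgeR called 16 of 77 channel genes in all nuclei (7 higher and 9 lower, background 4.63%, 2.33% higher and 2.3% lower) and 18 of 76 in neuron-like nuclei (background 5.68%).

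Within clusters, 3 of 71 channel genes differed between frozen and fresh libraries, against 0.905% of all genes. In layer 6 corticothalamic-like nuclei Kcnab1 lay at 2.43, 4.46, 2.02 and 2.53 UFIs per 10000 in the frozen and at 0.807, 1.41 and 0.904 in the fresh libraries (log2 1.57 ± 0.20, adjusted p = 0.00266). Kcnip4 lay at 41.7, 54.5, 45.5 and 52.7 in the frozen and at 29.3, 35.0 and 36.5 in the fresh libraries (log2 0.58 ± 0.12, adjusted p = 0.0397). In both cases every frozen library was above every fresh one. In oligodendrocyte-like nuclei Kcnmb2 lay at 2.75 and 2.72 in No_index_frozen and at 0.145 to 0.520 in the other 5 libraries (log2 2.77 ± 0.28, adjusted p = 0.00133), so that Index_frozen overlapped the fresh libraries. The count was 5 without No_index_frozen replicate 2 and 7 without Index_fresh.

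Whether the storage difference depended on the primer was tested as an interaction, which rests on the 1 Index_fresh library. The spread of that library was taken from the other groups, so an interaction cannot be told apart from a deviation of this library alone. Nor can it be told apart from a difference between preindex sets. The listed preindexes matched 3100 of 3100 nuclei in Index_fresh but 175 of 2300 and 159 of 1998 in Index_frozen. The interaction passed for 28 of 77 channel genes (12 higher and 16 lower, background 16.4%, 9.93% higher and 6.49% lower). The largest were the kidney channels Kcnj15 (9.73 ± 0.78), Kcnj1 (8.62 ± 0.98), Kcnj16 (5.55 ± 0.32), Kcnk5 (4.63 ± 0.39) and Kcnq1 (2.22 ± 0.24), which were high only in Index_frozen. Without the kidney and hepatocyte clusters 20 of 76 were called (background 7.94%), none with an absolute log2 value of 1 or more, and 15 of the 28 were among them. One example is Kcna1, an axonal channel, which lay at 49.2 and 44.8 CPM in No_index_frozen and 42.4 and 38.9 in No_index_fresh, but at 28.4 and 26.1 in Index_frozen and 40.2 in Index_fresh. Frozen was thus above fresh without the preindex and below it with the preindex (interaction -0.77 ± 0.11, adjusted p = 0.000198, and -0.61 without those clusters, adjusted p = 0.00427).

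Of 20 genes listed as channel partners, 19 were in the files and were tested alongside. With the preindex 2 rose and 5 fell in all nuclei (background 7.88% higher and 7.88% lower). In neuron-like nuclei 6 rose and 4 fell of 18 (background 11.3% higher and 9.94% lower). For storage the lowest adjusted p among them in all nuclei was 0.127, for Amigo1 (log2 -0.26). The 5 lower ones were the pacemaker channels Hcn2 (log2 -0.49 ± 0.05, adjusted p = 0.00245) and Hcn4 (-0.41 ± 0.10, adjusted p = 0.0355), the Kcnb-binding Amigo1 (-0.53 ± 0.06), the sulfonylurea receptor Abcc8 (-0.48 ± 0.05), which pairs with Kcnj11, and the axonal adhesion gene Cntn2 (-0.76 ± 0.07). Ank3, which anchors Kcnq channels at the axon initial segment, rose from 1721 to 1797 CPM in No_index to 2213 to 2326 in Index libraries (0.37 ± 0.05, adjusted p = 0.00358). The other gene that rose was Kcnq1ot1 (0.35 ± 0.05, adjusted p = 0.00473), a non-coding RNA opposite Kcnq1, and whether its reads were kept apart from those of Kcnq1 was not tested. Dpp6 and Dpp10, subunits of Kcnd channels, had log2 values of -0.09 ± 0.06 (adjusted p = 0.282) and 0.14 ± 0.04 (adjusted p = 0.0690).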

How the data were processed

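Nuclei of mouse brain were profiled by droplet sequencing. The paper describes random reverse transcription primers, and its listed primers include a poly-T one as well. The deposited values are raw counts of UFIs per gene and nucleus, made by the authors with cutadapt, UMI-tools, STAR and featureCounts on GRCm38 (versions not given in the sources used here), with reads counted over whole genes. Spans and positions came from GENCODE M21, which matched all 92 genes.

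From these counts, nuclei were normalized to 10000 UFIs, log-transformed and clustered with scanpy 1.11.5 (2000 variable genes without the channel genes, 40 components, 10 neighbours, Leiden resolution 0.4). No doublet caller was run. Counts summed per library were tested with edgeR 4.0.16 (R 4.3.3; quasi-likelihood, TMM, filterByExpr on the 4 groups, storage and primer as terms, or with their interaction). P-values were adjusted over all genes tested (Benjamini-Hochberg, 0.05). DESeq2 1.42.0 was an alternative. Intervals are exact at 95%, from scipy 1.17.1, and a count of 0 allows up to 3 counts. In simulated counts over 18668 genes, 200 of them changed by 1.5 on the log2 scale, 139 were called for storage and 141 for primer, all with the right sign, and 8.55% and 7.24% of the calls were false.

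Genes were named by a rule: up to 12 called per factor and direction, the leading 3 per cluster (up to 30), the 10 with the most UFIs, and all Kcnj and Kcnk genes. Others named in the text were picked after their values were seen. The channel genes, markers, partners and rules were chosen with earlier results of these data known, and the set of neuron-like clusters after seeing the clusters. Groups came from the titles. Libraries of other samples in the series were not used here. Results of some channel genes are not reported here, though counts over the channel genes include them.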

Additional observations from a re-analysis of the deposited data

Results flagged for a closer look

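In 3 of the 76 groups of libraries tested, 1 library stood far from the rest, and chance alone flags about 1 in 20 such groups. Kcnd3 lay at 445.2 CPM in No_index_frozen replicate 1, while the other 3 frozen libraries lay between 489.95 and 495.3. Kcnip4 lay at 6346 CPM in No_index_frozen replicate 2 against 6796 to 6818 in the other 3 frozen libraries. Kcnq5 lay at 1162 CPM in the same library against 1366 to 1385 in the other 3 No_index libraries. All 3 were the lowest of their group.

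For 28 channel genes the storage difference was not the same with and without the preindex by the edgeR interaction term, which rests on the 1 Index_fresh library. Most Index_frozen nuclei, unlike those of Index_fresh, did not carry the listed preindexes, so preindex set and storage cannot be told apart there. The value is the log2 difference of frozen minus fresh in Index libraries less that in No_index libraries. Values are given for 27 of them. It was below 0, so frozen was lower relative to fresh with the preindex, for Kcnab3 (-1.01), Kcng1 (-0.79), Kcna1 (-0.77), Kcns3 (-0.70), Kcnk12 (-0.68), Kcnip1 (-0.60), Kcnn2 (-0.49), Kcnd2 (-0.41), Kcnd3 (-0.39), Kcnip4 (-0.34), Kcnj12 (-0.34), Kcnc2 (-0.30), Kcna2 (-0.27), Kcnk10 (-0.23) and Kcnq3 (-0.21). It was above 0 for Kcnh1 (0.33), Kcnj9 (0.34), Kcnh5 (0.35), Kcnk2 (0.36), Kcnh8 (0.55), Kcnj4 (0.63) and Kcnj10 (0.84), and for the kidney channels Kcnq1 (2.22), Kcnk5 (4.63), Kcnj16 (5.55), Kcnj1 (8.62) and Kcnj15 (9.73). Without the kidney and hepatocyte clusters, 15 of the 28 genes were still called.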

How the results depend on the processing

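For storage in all nuclei the count of 0 channel genes became 4 with DESeq2, 18 with no filter on low counts and 0 to 16 when 1 library was left out, the highest without Index_fresh (all genes 1.65%, 5.62% and 4.63%). In neuron-like nuclei it became 2, 9 and 0 to 18 (all genes 0.985%, 2.24% and 5.68%), and within clusters the 3 genes became 5, 14 and 2 to 7. For primer the 32 genes in all nuclei became 4 with an absolute log2 fold change of at least 1 (all genes 3.65%). They became 13 to 44 when 1 library was left out, lowest without Index_frozen replicate 2 (all genes 5.26%) and highest without Index_fresh (31.3%). The 33 in neuron-like nuclei became 2 at that fold change (all genes 2.82%). Leaving out 1 library gave 28 to 38 there. The lowest was without Index_frozen replicate 2 (all genes 2425 of 18054) and the highest without Index_fresh (3953 of 16915). Within clusters the 28 became 44 with no filter and 19 to 31 when 1 library was left out. The interaction count of 28 ran from 22 to 29 over the libraries that could be left out, which do not include Index_fresh. The share of all genes is not given for the interaction range and was not computed for the within-cluster counts of these settings. Whether those changes are particular to channel genes therefore cannot be read from the counts. The 16 genes of the level rule ran from 16 to 19 and the 61 of the detection rule from 60 to 61. Kcnk5, called higher with the preindex, was no longer called without the kidney and hepatocyte clusters (log2 -0.45 ± 0.26). Without the nuclei that carry a kidney preindex its log2 value was -0.10 (a setting added after seeing the data). Without the kidney and hepatocyte clusters, also added later, the interaction was -0.0087 ± 0.56 for Kcnk5 and -0.35 ± 0.33 for Kcnq1, and neither was called. The cause was not tested for the other changes.

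Replicate numbers did not pair the libraries: the differences between replicates correlated at -0.013, 0.042 and -0.043 between groups. With the replicate number as a block, the primer count in all nuclei was 19 (5 higher and 14 lower). Among all 19299 genes tested, 1731 were called (801 higher and 930 lower). The other channel gene counts were 0 for storage in all and in neuron-like nuclei (all genes 5 of 19299 and 31 of 18166). They were 30 for primer in neuron-like nuclei (all genes 2981 of 18166) and 25 for the interaction (all genes 2869 of 19299). Within clusters they were 2 for storage and 29 for primer, where the share of all genes was not computed. Genes under 1000 UFIs (28 of 92) are limited by depth.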

Other observations

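Within medium spiny-like nuclei, finer clustering gave a cluster with D1 markers (772 nuclei) and one with D2 markers (487 nuclei) that differed in several channels. The G protein-coupled rectifier Kcnj3 lay at 1.60 UFIs per 10000 in D1 nuclei (0.997 to 2.59 over 7 libraries) and 0.679 in D2 nuclei (0.453 to 0.992), and Kcnb2, a delayed rectifier, at 6.38 (5.15 to 6.99) and 3.78 (2.54 to 4.53). Both were higher in D1 nuclei in 7 of 7 libraries, and their ranges did not overlap. The leak channel Kcnk2 was the other way round, at 1.80 (1.52 to 2.12) in D1 and 2.89 (2.34 to 3.14) in D2 nuclei, and higher in D1 nuclei in 0 of 7 libraries. Kcnd3 (2.51 and 3.47) and Kcnab1 (6.13 and 7.29) were also lower in D1 nuclei in 7 of 7 libraries, with overlapping ranges. The lowest D1 value of Kcnj3 was close to its highest D2 value, and the part of carried-over RNA in its levels was not tested. Clusters come from the same nuclei, so these are descriptions.

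The kidney tubule-like cluster was split further after the data had been seen. Not all of its parts were led by tubule genes: 50 nuclei were led by Chga and Chgb and 48 by Mki67 and Diaph3. Levels and detection shares given above for the cluster therefore average over unlike nuclei. Kcnj1 reached 4.82 UFIs per 10000 in 38 nuclei led by Gp2 and Slc12a1, genes of the thick ascending limb. Kcnq1 reached 10.4 in 81 nuclei led by Slc4a9 and Atp6v0d2, genes of intercalated cells. Kcnj15 (14.5) and Kcnk5 (4.55) were highest in 93 nuclei with the proximal tubule transporter genes Slc5a2 and Slc5a12 among their leading genes. Kcnk3 (16.4) and Kcnma1 (19.5) were highest in 28 nuclei with Cyp11b1 and Star, genes of adrenal steroid synthesis, among the leading genes. Kcnj15 was also present in 19 nuclei led by podocyte genes (6.52, detected in 89.5%) and in 10 nuclei led by immune genes (8.33, detected in 100%), and the part of carried-over tubule RNA in these values was not tested.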
